A study of Mus musculus with 18 samples.

Results

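Adhesion and homing receptors of T cells are represented here by 9 of the 46983 genes in the deposited tables, each a surface receptor with which T cells stick to other cells or find their way through tissue. They are the integrin chains Itgal, Itgb2, Itga4 and Itgb1, the adhesion receptors Cd44 and Cd2, and the chemokine receptors Cxcr6, Cxcr3 and Ccr2. The members were selected on their expression values in these same libraries, by treatment and sort. The values by treatment and by sort are therefore a description, and the adjusted p-values beside them say how the fit of all genes placed them and carry no weight as independent evidence.

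Integrins are receptors of an alpha and a beta chain. Itgal and Itgb2 encode the chains of LFA-1, which holds a T cell to ICAM molecules on antigen-presenting cells, target cells and vessel walls, and Itga4 and Itgb1 encode those of VLA-4, which binds VCAM-1 and fibronectin. Talin and kindlin bind the beta chain inside the cell and switch the receptor to its adhesive form. Cd44 binds hyaluronan and is high on T cells that have met antigen, Cd2 binds CD48 in the mouse, and the chemokine receptors follow gradients of CXCL16 (Cxcr6), CXCL9 and CXCL10 (Cxcr3) and CCL2 and its relatives (Ccr2).

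RNA came from cells sorted out of subcutaneous tumours of MC38, a mouse colon carcinoma line, in C57BL/6 females that were 6 weeks old when injected. Mice were given anti-PD-1 antibody plus D18, an agent known here by its code name (25 µg per mouse, 1 time per week, with 200 µg of antibody per mouse 2 times per week), or the same antibody alone, both for 2 weeks from a mean tumour size of 100 mm3. From CD8+ T cells, CD4+ T cells and dendritic cells there are 3 libraries each with the combination (called D18 from here on) and 3 each with anti-PD-1, 18 in all. Every mouse carried the antibody and no untreated tumour is among the samples. The mice were pooled and then divided, and nothing ties a replicate to a mouse, so p-values measure the spread between these libraries, which may be technical.

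The libraries held 11170 to 266392 reads assigned to genes, of which mitochondrial genes took 2.39% to 71.9%. Levels are therefore given as CPM, the usual scaling to library size, here over the reads of nuclear genes only. The floor of 3 reads, the upper limit that a count of 0 allows, came to 11.9 CPM in CD8+ T cell D18 replicate 2 and to 314 CPM in dendritic D18 replicate 2, which had 9560 nuclear reads. No molecular identifiers were read, so floors and intervals cover counting error only. Marker reads went against the sort label in several libraries, so cell names below stand for the label and not for the content. For Cd3e, the CD3 epsilon chain, the CD4+ T cell sort had 23, 10 and 41 reads with D18 against 0, 1 and 45 with anti-PD-1. The dendritic cell sort had 0, 0 and 69 reads of it with D18 and 0, 0 and 34 with anti-PD-1, so the libraries numbered 3 of that sort held T cell transcripts. CD4+ T cell D18 replicate 3 had 83 reads of Cd8a and 2 of Cd4. Lyz2, the myeloid lysozyme, had reads in all 18 libraries. Summed over mt-Atp6, mt-Co2 and mt-Co3, replicates 1 and 2 with anti-PD-1 held 0 reads in every sort and the other 12 libraries held 5 to 334, which is called a batch below although no label names it. Within the batch that holds the D18 libraries, each sort has 1 anti-PD-1 library, replicate 3.

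Itgal was the member whose level followed the treatment in every sort. In the CD8+ T cell sort it had 43, 218 and 30 reads with D18 against 18, 55 and 12 with anti-PD-1, which is 740 ± 196 CPM against 239 ± 114 CPM (SD, n = 3 each). In the CD4+ T cell sort it had 31, 10 and 46 reads with D18 against 2, 0 and 22 with anti-PD-1 (489 ± 195 against 86.3 ± 131 CPM). Replicates 1 and 2 with anti-PD-1 of that sort held 0 and 1 reads of Cd3e and 121 and 450 CPM of 16 T cell markers. Their low counts of Itgal thus come from libraries with few T cell transcripts. In the dendritic cell sort Itgal had 41, 3 and 66 reads with D18 against 4, 0 and 23 with anti-PD-1 (372 ± 96.6 against 80.6 ± 87.1 CPM). In each sort the lowest D18 library lay above the highest anti-PD-1 library, both in reads divided by the size factor of the library (normalised reads) and in CPM. In bulk RNA, more cells that carry a transcript and more transcript per cell cannot be told apart.

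The log2 change of Itgal (normalised reads + 1, limma) was 1.66 ± 0.47 in the CD8+ T cell sort, 3.13 ± 1.05 in the CD4+ T cell sort and 2.52 ± 1.07 in the dendritic cell sort (SE). None passed over all genes by limma, with adjusted p of 0.534, 0.453 and 0.551. limma called 0 of 1569, 0 of 966 and 0 of 886 genes in these sorts (0% each), limma-voom also 0, and an unadjusted p under 0.05 was found for 8.29%, 10.4% and 6.88% of the genes (3.19%, 3.73% and 2.14% with D18 higher). Groups that did not overlap, with D18 higher, were found for 6.88% of the genes tested in the CD8+ T cell sort, 5.28% in the CD4+ T cell sort and 4.18% in the dendritic cell sort, and with D18 lower for 7.65%, 9.21% and 19.9%. Of the 727 genes tested in all 3 sorts, 1 gene (0.138%), Itgal, had D18 libraries above all anti-PD-1 libraries of the same sort in each of them, and 11 (1.51%) had them below in each. Scaled as CPM, these counts were 1, again Itgal, and 13 (1.79%). Itgal was selected on these values, so its place among the 727 genes is a description and no evidence. It met the required mean of 10 normalised reads in the CD4+ and dendritic sorts through its D18 libraries. With anti-PD-1 it had 1.40, 0 and 14.3 normalised reads in the CD4+ T cell sort and 4.24, 0 and 10.9 in the dendritic cell sort.

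The separation was narrow in the less deep sorts. D18 replicate 2 of the dendritic cell sort rests on 3 reads of Itgal, with an exact Poisson interval of 64.7 to 917 CPM that takes in the 173 CPM of anti-PD-1 replicate 3. For CD4+ T cells, the interval of D18 replicate 2 (10 reads, 158 to 608 CPM) takes in the 237 CPM of anti-PD-1 replicate 3. In the CD8+ T cell sort the lowest D18 library had 514 CPM (346 to 733) and the highest anti-PD-1 library 339 CPM (255 to 441), so these intervals overlap too.

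Libraries of the same replicate number deviated together in the CD8+ T cell sort. With the replicate number as a block the change of Itgal passed there (1.66 ± 0.32, adjusted p = 0.0340 by limma). It was 1 of 20 genes called, of 1569 (1.27%), and of 9 that were higher with D18 (0.574%). No label names this block, and the pairing was read from these same values. Itgal was selected on them too, so this p-value carries no weight as independent evidence. Within the batch, the change of Itgal was 2.44 ± 0.61 in the CD8+ T cell sort, 0.92 ± 1.09 in the CD4+ T cell sort and 0.93 ± 1.56 in the dendritic cell sort, values that rest on anti-PD-1 replicate 3 of each. Without both libraries numbered 3 it was 1.48 ± 0.55, 4.26 ± 1.27 and 3.05 ± 2.05, where limma called 0%, 3.59% and 0.118% of the genes. With each library left out in turn, the change of Itgal stayed between 1.27 and 1.94, between 2.26 and 4.23 and between 1.52 and 3.31.

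**Figure D1:**
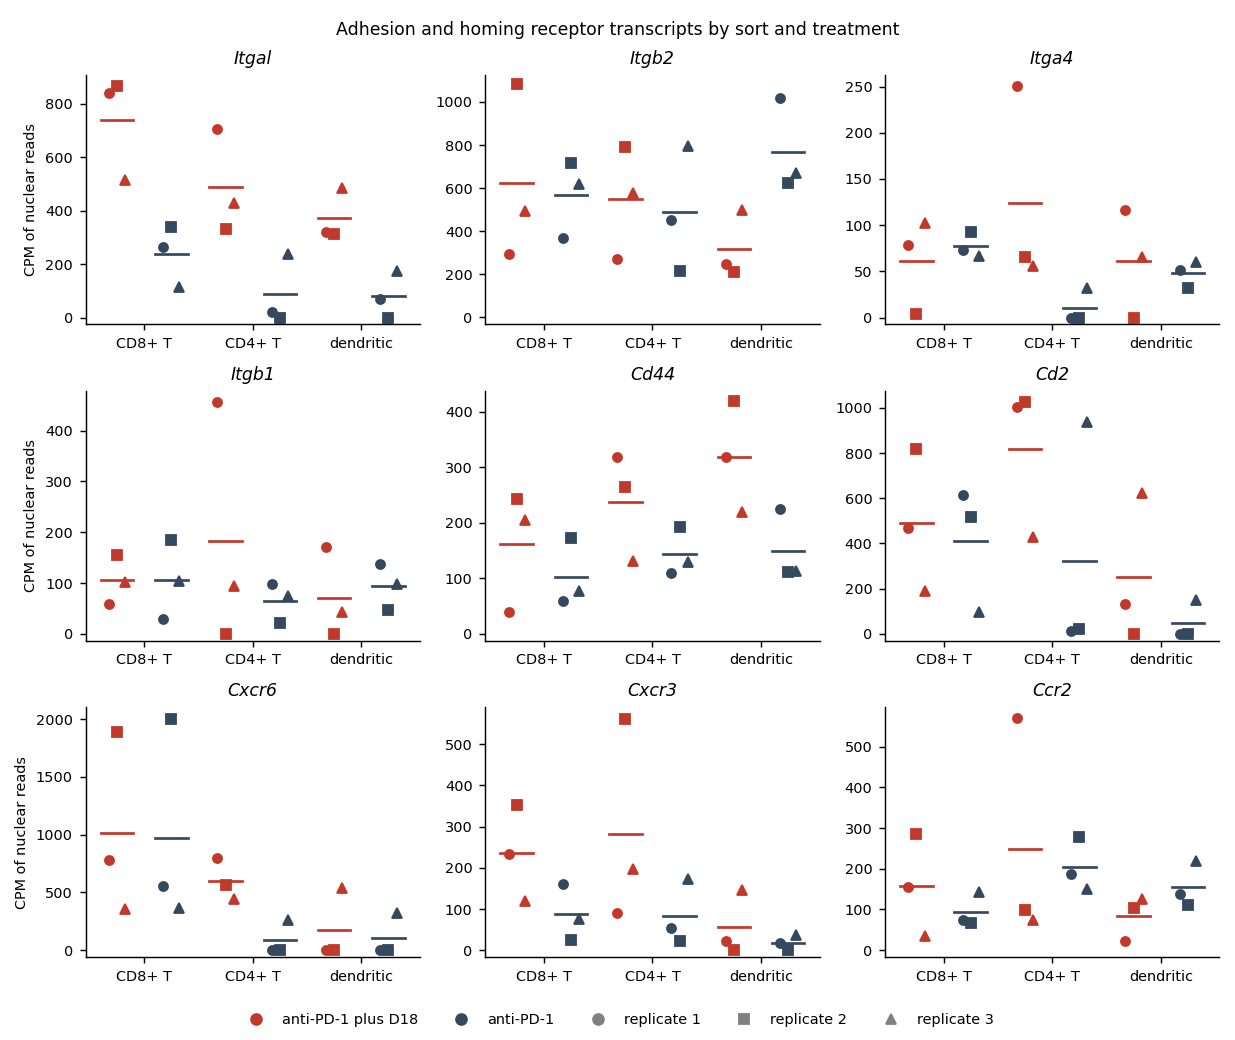
Levels of the 9 receptors in CPM of nuclear reads (y axis, linear, own scale per gene) by sort, with anti-PD-1 plus D18 in red to the left of anti-PD-1 in dark blue. Points are libraries, with the shape giving the replicate number, and bars are means of 3. Itgal lies at 314 to 865 CPM with D18 and at 0 to 339 CPM with anti-PD-1.

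Itgb2, the beta chain that LFA-1 shares with the myeloid integrins of Itgam and Itgax, did not go with its partner. It had 15, 273 and 29 reads with D18 and 25, 116 and 65 with anti-PD-1 in the CD8+ T cell sort (624 ± 410 against 567 ± 180 CPM), and 12, 24 and 62 against 41, 10 and 74 in the CD4+ T cell sort (549 ± 261 against 488 ± 293 CPM). The groups overlapped in both, with log2 changes of -0.03 ± 0.54 and 0.24 ± 0.65. Among dendritic cells it had 32, 2 and 68 reads with D18 against 59, 39 and 89 with anti-PD-1 (319 ± 157 against 770 ± 215 CPM). There each D18 library lay below each anti-PD-1 library, as was so for 19.9% of the 886 genes, and the change of -1.38 ± 0.67 stands beside a median of -0.65 over all of them (adjusted p = 0.551 by limma).

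Set against each other, Itgal took 74.1%, 44.4% and 50.8% of the reads of both LFA-1 chains in the CD8+ T cell sort with D18 and 41.9%, 32.2% and 15.6% with anti-PD-1. CD4+ T cell libraries had 72.1%, 29.4% and 42.6% with D18 and 4.65%, 0% and 22.9% with anti-PD-1, where replicates 1 and 2 held 0 and 1 reads of Cd3e. Dendritic cell libraries had 56.2%, 60% and 49.3% with D18 and 6.35%, 0% and 20.5% with anti-PD-1. The shares as measured did not overlap in any of the 3 sorts, but the counts do not separate the closest libraries. Among CD8+ T cells, D18 replicate 2 (exact interval 39.9% to 48.9%) lay inside the interval of anti-PD-1 replicate 1 (27.0% to 57.9%). Inside the batch, the 9 D18 libraries held shares of 29.4% to 74.1% and the 3 anti-PD-1 libraries 15.6% to 22.9%. The exact binomial interval of the lowest D18 share, 15.1% to 47.5% in CD4+ T cell replicate 2, takes in all 3 of the anti-PD-1 values. The library with 60% holds 5 reads of both chains (14.7% to 94.7%). Reads of Itgb2 were not confined to libraries with T cell reads. Dendritic anti-PD-1 replicates 1 and 2 held 59 and 39 reads of it beside 0 of Cd3e. The part of macrophage content in these shares was not tested.

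Because T cell reads differed between libraries, Itgal was also set against Cd3e in the 12 libraries with at least 10 reads of it. Itgal had 1.16, 1.04 and 1.58 reads per Cd3e read in the CD8+ T cell sort with D18, against 0.383, 0.474 and 0.400 with anti-PD-1. The CD4+ T cell sort gave 1.35, 1.00 and 1.12 with D18 against 0.489 in anti-PD-1 replicate 3. The libraries numbered 3 of the dendritic cell sort gave 0.957 with D18 against 0.676 with anti-PD-1. All 7 D18 libraries therefore lay above all 5 anti-PD-1 libraries, and of the 727 genes Itgal was the 1 (0.138%) with this order and Serp1 the 1 (0.138%) with its opposite. Against the 16 T cell markers together, Itgal had 5.29 to 9.84 reads per 100 with D18 and 2.42 to 4.41 with anti-PD-1, again without overlap. The closest pair is not separated by its counts: Itgal made up 48.9% of the Itgal and Cd3e reads in dendritic D18 replicate 3 (exact interval 40.2% to 57.6%) and 40.4% in anti-PD-1 replicate 3 (27.6% to 54.2%). The share of LFA-1 reads and the ratio to Cd3e were chosen after the values had been seen. The place of Itgal among the 727 genes is a description here too.

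**Figure D2:**
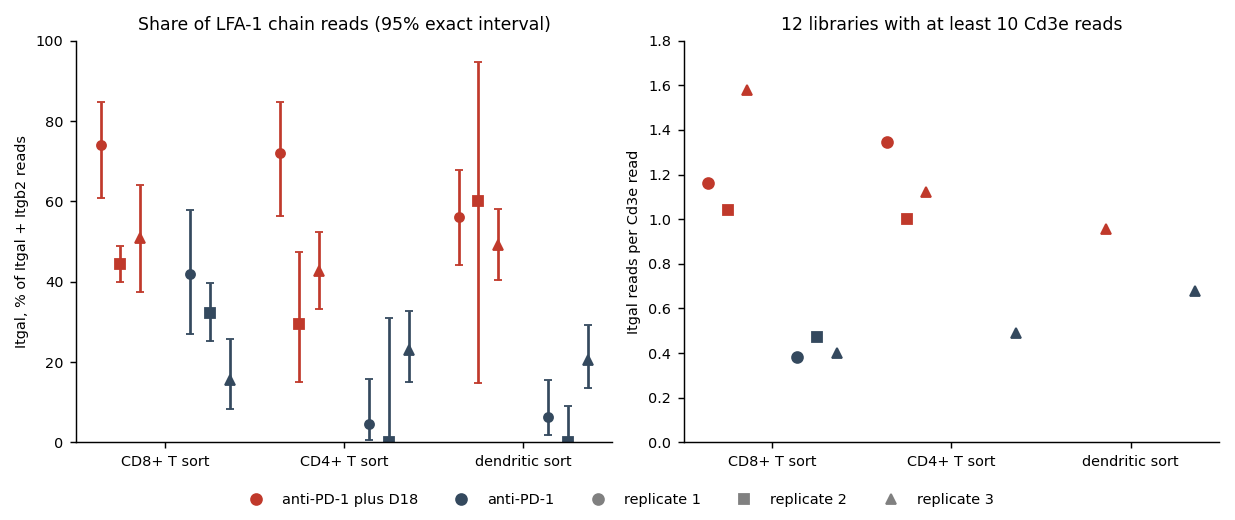
Left, Itgal as a percentage of the reads of Itgal and Itgb2 in each library, with exact 95% binomial intervals. Right, Itgal reads per Cd3e read in the 12 libraries with at least 10 Cd3e reads. Anti-PD-1 plus D18 (red) stands left of anti-PD-1 (dark blue) in each sort and the shape gives the replicate. On the right, D18 libraries lie at 0.957 to 1.58 and anti-PD-1 libraries at 0.383 to 0.676.

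Macrophage transcripts were mostly lower with D18, with overlap in both T cell sorts. The 20 macrophage and monocyte markers took 5844 to 35245 CPM with D18 and 28757 to 56026 CPM with anti-PD-1 in the CD8+ T cell sort, 11843 to 35014 against 27041 to 86284 CPM in the CD4+ T cell sort, and 16632 to 46450 against 51508 to 75766 CPM in the dendritic cell sort. Of 18 tested, 17 had a negative change in each sort, with medians of -2.32, -1.34 and -1.17. The part of these cells in the change of Itgal was not tested. Over the 18 libraries the log2 level of Itgal had a Pearson correlation of -0.77 with the macrophage markers. With the T cell markers it was 0.70, and both values are a description without a test. In 1 library, dendritic D18 replicate 1, there were 41 reads of Itgal beside 0 of Cd3e and 132 CPM of the 16 T cell markers. The B cell markers took 1810 CPM in that library, the highest value of the 18, and their part was not tested. The other libraries with at most 1 read of Cd3e held few reads of Itgal. Dendritic D18 replicate 2 had 3, and anti-PD-1 replicates 1 and 2 had 2 and 0 in the CD4+ T cell sort and 4 and 0 in the dendritic cell sort.

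The chains of VLA-4 were too low to test, with means under 10 normalised reads in every sort. Itga4 had 4, 1 and 6 reads with D18 against 5, 15 and 7 with anti-PD-1 in the CD8+ T cell sort. CD4+ T cells gave 11, 2 and 6 against 0, 0 and 3, and the dendritic cell sort 15, 0 and 9 against 3, 2 and 8. The groups did not overlap in the CD4+ T cell sort, as was so with D18 higher for 5.28% of the genes tested there. CD8+ T cell D18 replicate 2, the deepest library, thus held 1 read of Itga4. Itgb1, the beta chain of VLA-4 and of other integrins in many cell types, had 3, 39 and 6 reads with D18 against 2, 30 and 11 with anti-PD-1 in the CD8+ T cell sort, and 20, 0 and 10 against 9, 1 and 7 in the CD4+ T cell sort. Dendritic cells gave 22, 0 and 6 against 8, 3 and 13. Groups overlapped for Itgb1 in all 3 sorts.

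Cd44, the hyaluronan receptor, was present at low levels in every library, with 2 to 61 reads. It took 162 ± 108 CPM with D18 and 103 ± 61.4 CPM with anti-PD-1 in the CD8+ T cell sort, and 238 ± 96.7 against 144 ± 43.4 CPM in the CD4+ T cell sort. Dendritic cells gave 41, 4 and 30 reads with D18 against 13, 7 and 15 with anti-PD-1 (319 ± 99.4 against 150 ± 64.4 CPM). The log2 changes were 0.42 ± 0.73, 0.64 ± 0.58 and 0.95 ± 0.59, and the last of them lies on the other side of 0 from the median of that sort. The groups of the dendritic cell sort did not overlap in normalised reads, as was so with D18 higher for 4.18% of the genes tested. They did overlap in CPM, where the lowest D18 library had 219.7 and the highest anti-PD-1 library 223.9.

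Cd2, an adhesion receptor of T cells and natural killer cells, went with T cell reads. In the CD8+ T cell sort it had 24, 206 and 11 reads with D18 against 42, 84 and 10 with anti-PD-1 (492 ± 315 against 410 ± 277 CPM, log2 change 0.38 ± 0.75). CD4+ T cells gave 44, 31 and 46 reads with D18 against 1, 1 and 87 with anti-PD-1 (log2 change 2.98 ± 1.25). Anti-PD-1 replicate 3 of that sort, with 937 CPM, lay inside the range of the D18 libraries, 430 to 1024 CPM, and within the batch the change was -0.30 ± 0.76. The 16 T cell markers took 6046 to 8085 CPM with D18 and 121 to 7175 CPM with anti-PD-1 in that sort, and all 13 tested had positive changes (median 2.66). Their part in the changes of Cd2 and Cxcr6 was not tested. Dendritic cells gave 17, 0 and 85 reads with D18 against 0, 0 and 20 with anti-PD-1, too few on average to test.

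The upstream sequences of the chemokine receptor genes are shown because these receptors differed in how far their reads went with those of T cells, with Cxcr6 at 0 reads in every library with at most 1 read of Cd3e and Cxcr3 and Ccr2 above 0 in some of these. Each is the run of 200 bases before the transcription start in RefSeq's GRCm38.p6 table, 5′ to 3′ on the strand of the gene. Capitals mark a RUNX core (TGTGGT), an ETS core (AGGAAG), a T-box core (GTGTGA) or TATAAA, searched on both strands.
Cxcr6, chr9:123806277-123806476, plus strand: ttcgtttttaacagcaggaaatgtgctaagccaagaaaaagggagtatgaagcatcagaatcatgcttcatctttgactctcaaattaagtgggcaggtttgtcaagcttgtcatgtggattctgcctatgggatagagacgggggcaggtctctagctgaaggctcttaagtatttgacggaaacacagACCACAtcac
Cxcr3, chrX:101734148-101734347, minus strand: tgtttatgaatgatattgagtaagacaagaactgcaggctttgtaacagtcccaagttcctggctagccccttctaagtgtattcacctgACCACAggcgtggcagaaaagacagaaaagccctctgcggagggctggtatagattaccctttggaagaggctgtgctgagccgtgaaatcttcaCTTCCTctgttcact
Ccr2, chr9:124101983-124102182, plus strand: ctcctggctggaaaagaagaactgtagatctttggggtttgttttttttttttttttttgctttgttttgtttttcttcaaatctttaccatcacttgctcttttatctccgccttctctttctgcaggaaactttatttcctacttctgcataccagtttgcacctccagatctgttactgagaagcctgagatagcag
The RUNX core starts 10 bases before the start of Cxcr6 and 110 before that of Cxcr3, each on the opposite strand, and an ETS core starts 15 bases before that of Cxcr3. The window of Ccr2 holds none of the 4, and no matches overlap. Of 32851 such windows in the table, 11.2% hold the RUNX core, 24.7% the ETS core, 9.9% the T-box core and 10.0% TATAAA. A match of letters is a description, not a site. RefSeq's starts need not equal GENCODE's gene bounds. The table holds 6 of the 9 genes, not Itgal, Itgb2 and Cd2. Of the members not shown, the window of Itga4 holds a RUNX core and T-box cores, and those of Itgb1 and Cd44 hold ETS cores. Whether the matches go with the reads was not tested.

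Cxcr6, the receptor for CXCL16 found on tumour-resident T cells, had the highest level per kilobase of the members in the CD8+ T cell sort. It had 40, 477 and 21 reads with D18 against 38, 325 and 38 with anti-PD-1 there (1011.6 ± 792 against 974.5 ± 897 CPM), with nearly equal means and a log2 change of 0.12 ± 0.75. CD4+ T cells had 35, 17 and 47 reads of it with D18 against 0, 0 and 24 with anti-PD-1 (599 ± 182 against 86.2 ± 149 CPM), groups that did not overlap, as was so with D18 higher for 5.28% of the genes tested. The log2 change was 3.82 ± 1.15 (adjusted p = 0.453 by limma) and 1.12 ± 1.05 within the batch, where anti-PD-1 replicate 3 is the library with Cd3e reads. Dendritic cells had 0, 0 and 73 reads of Cxcr6 with D18 against 0, 0 and 43 with anti-PD-1. It thus had 0 reads in each of the 6 libraries with at most 1 read of Cd3e, where the floor of 3 reads comes to 23.3 to 314 CPM, and 259 to 2004 CPM in the other 12.

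Cxcr3, which guides effector T cells towards interferon-induced chemokines, had 12, 89 and 7 reads with D18 against 11, 4 and 8 with anti-PD-1 in the CD8+ T cell sort (236 ± 117 against 87.4 ± 69.0 CPM). Anti-PD-1 replicate 2 stood low, with 4 reads among 162189, and the groups overlapped. The log2 change was 1.47 ± 0.67 and, without that library, 0.85 ± 0.57. CD4+ T cells gave 4, 17 and 21 reads against 5, 1 and 16 (log2 change 1.57 ± 1.14, and 0.32 ± 1.42 within the batch), and in the dendritic cell sort 3, 0 and 20 against 1, 0 and 5.

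Ccr2, a receptor of inflammatory monocytes as well as of effector T cells, showed no order by treatment. It had 8, 72 and 2 reads with D18 against 5, 11 and 15 with anti-PD-1 in the CD8+ T cell sort (log2 change 0.36 ± 0.76), 25, 3 and 8 against 17, 13 and 14 in the CD4+ T cell sort (-0.21 ± 0.76), and 3, 1 and 17 against 8, 7 and 29 in the dendritic cell sort. Unlike those of Cxcr6, its reads were not confined to libraries with Cd3e: the 6 libraries with at most 1 read of Cd3e held 3 and 1 reads with D18 and 17, 13, 8 and 7 with anti-PD-1.

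**Figure D3:**
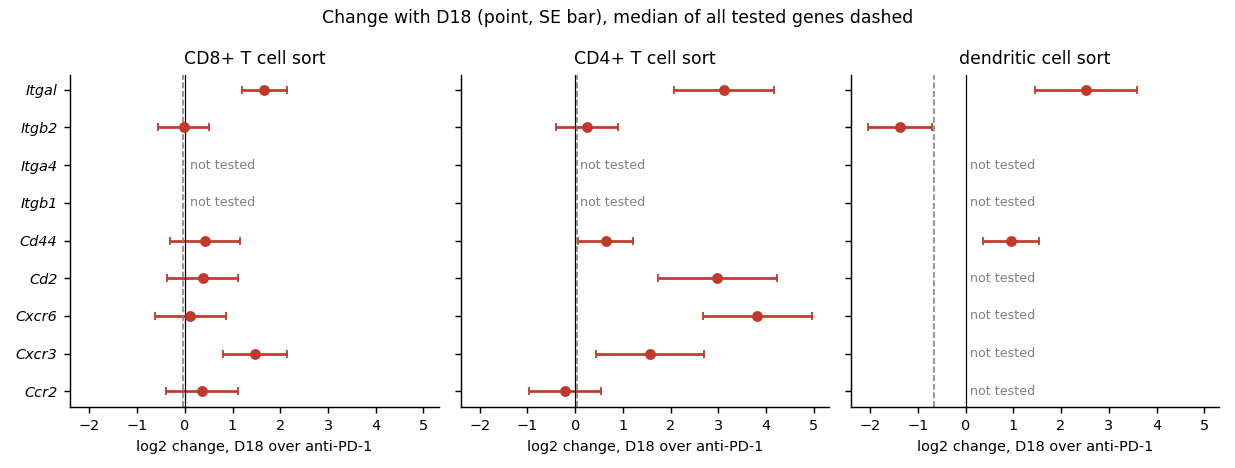
Log2 change (x axis, anti-PD-1 plus D18 over anti-PD-1, normalised reads + 1) of each member by sort, with SE bars from limma, 3 libraries per group. The dashed line is the median of all genes tested, -0.65 in the dendritic cell sort. Itgal lies at 1.66, 3.13 and 2.52, and members under a mean of 10 normalised reads are marked as not tested.

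Of the 9 members, 7 passed the filter on low values in each T cell sort and 3 in the dendritic cell sort. Because the filter asks for a mean over all libraries, a member can pass through the group where it is high. Besides Itgal, members passed through their D18 libraries as follows, with normalised reads of anti-PD-1. Cxcr6 had 0, 0 and 15.6 in the CD4+ T cell sort. Cxcr3 had 14.8, 2.22 and 7.69 in the CD8+ and 3.49, 1.16 and 10.4 in the CD4+ T cell sort. Ccr2 had 6.74, 6.11 and 14.4 in the CD8+ T cell sort. Cd44 had 5.39, 15.5 and 7.69, then 6.99, 10.4 and 7.8, and 13.8, 7.39 and 7.1 in the dendritic cell sort. Without the filter, 3 members passed in the CD4+ T cell sort by limma, Cxcr6 (adjusted p = 0.00206), Cd2 (0.0155) and Itgal (0.0304), beside 29 calls among 14441 genes (0.201%), 14 of them higher with D18 (0.0969%). No member passed without the filter in the CD8+ T cell sort, where 22 of 14497 genes were called (0.152%, and 0.0138% with D18 higher), nor among dendritic cells (0 of 17841). In the CD4+ T cell sort Cd2 and Cxcr6 passed without both libraries numbered 3 (adjusted p of 0.0144 and 0.0440 by limma, 35 of 976 genes called, 3.59%, and 12 higher with D18, 1.23%). They also passed without anti-PD-1 replicate 3 (0.0102 and 0.0264, 20 of 969, 2.06%, and 18 higher, 1.86%). The anti-PD-1 libraries left in both cases are those with 0 and 1 reads of Cd3e. With the mean level of the T cell markers as a covariate, the changes in the CD4+ T cell sort were 0.14 ± 0.68 for Cd2, 1.49 ± 0.97 for Cxcr6 and 1.30 ± 1.05 for Itgal. In the CD8+ T cell sort the same fit gave -0.37 ± 0.46, -0.59 ± 0.50 and 1.30 ± 0.39. The low marker levels of the CD4+ T cell sort (121 and 450 CPM) were those of anti-PD-1 replicates 1 and 2. Marker level, treatment and batch thus largely go together there, and the fit cannot tell them apart.

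Whether the change with D18 differed between sorts was tested as a contrast over all 18 libraries. Between the CD8+ and the CD4+ T cell sort limma called 0 of 916 genes (0%, with an unadjusted p under 0.05 for 0.655%). Against dendritic cells it called 0 of 816 genes for CD8+ T cells (0.858% by unadjusted p) and 0 of 744 for CD4+ T cells (2.96%). The largest difference of a member between the T cell sorts was that of Cxcr6, -3.70 ± 2.03 (adjusted p = 0.995). For Itgal the differences were -1.46 ± 1.30 between the CD8+ and CD4+ sorts, -0.85 ± 1.30 between the CD8+ and dendritic sorts and 0.61 ± 1.30 between the CD4+ and dendritic sorts.

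Per kilobase of annotated exon, the order of the members differed between the sorts. In the CD8+ T cell sort Cxcr6 was highest (524 ± 410 CPM per kb with D18, 505 ± 464 with anti-PD-1), then Cd2 (282 ± 181 and 235 ± 159) and Itgb2 (205 ± 135 and 186 ± 59.0). These neighbours did not differ beyond their spread. Cxcr3 (136 ± 67.4 and 50.5 ± 39.9) and Itgal (113 ± 29.9 and 36.4 ± 17.4) came next, and Itga4 was lowest (4.41 ± 3.68 and 5.55 ± 0.96). CD4+ T cells had Cd2 highest with D18 (470 ± 194). With anti-PD-1 the mean of Cd2 (186 ± 305) rests on replicate 3: the 3 libraries had 6.32, 12.3 and 538 CPM per kb of Cd2 and 148, 70.2 and 261 of Itgb2, so Itgb2 was the higher of these genes in replicates 1 and 2. In the dendritic cell sort Itgb2 was highest with anti-PD-1 (252 ± 70.4, and 104 ± 51.3 with D18). By mean CPM over the 6 groups, Itgal and Cxcr6 were highest in CD8+ T cells with D18, and Itgb2 in dendritic cells with anti-PD-1, with no test across tables that were normalised apart. Exon lengths are unions over all transcripts in GENCODE, which for Itga4 comes to 13978 bases and lowers its value.

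**Figure D4:**
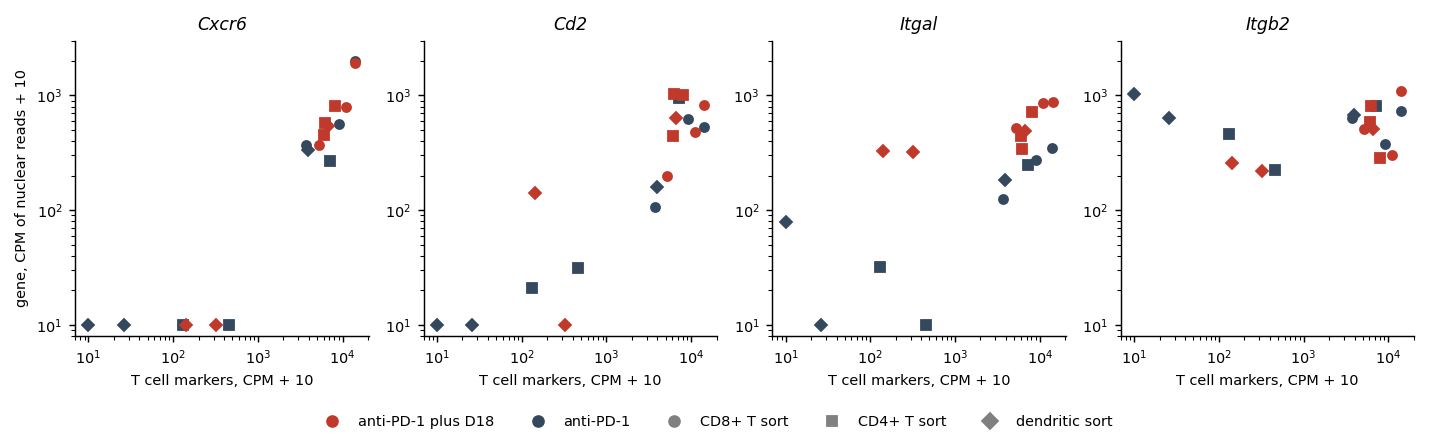
Level of 4 members (y axis, CPM of nuclear reads + 10, log scale) against the summed level of 16 T cell markers (x axis, CPM + 10, log scale) in the 18 libraries, with anti-PD-1 plus D18 in red and anti-PD-1 in dark blue. Cxcr6 lies at 0 CPM in every library with under 500 CPM of T cell markers, while Itgb2 lies between 209 and 1084 CPM throughout. Among libraries with T cell reads, Itgal is higher in red than in dark blue points of the same sort.

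The genes whose log2 levels (CPM + 10) over the 18 libraries were most like those of each member were found among 1022 genes. The libraries fall into separate clusters with and without T cell reads, so the Pearson correlations describe this set and carry no test. For Cxcr6 they were Il2rb, a chain of the interleukin-2 and interleukin-15 receptors (0.99), and Trbc2, a constant segment of the T cell receptor beta chain (0.99). For Cd2 they were the lymphocyte GTPase genes Gimap7 (0.98) and Gimap3 (0.96), for Itgal the splicing factor gene Rbm39 (0.91) and the proteasome activator gene Psme2 (0.89), and for Cxcr3 Cish (0.87) and Junb (0.84). Itgb2 was most like Tapbp (0.91) and Calr (0.78), both of MHC class I assembly. The values were 0.69 to 0.80 for Itga4 (Myh9, Tmed5), Itgb1 (Nedd8, Psmb1) and Cd44 (Cdkn1a, Tgm2) and 0.71 and 0.62 for Ccr2 (Ssh2, Bin2). Among the members, the closest pair was Cd2 and Cxcr6 (0.88), while the partner chains Itgal and Itgb2 stood at 0.05.

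Of the other integrin chains, 2 of 20 could be tested in the CD8+ T cell sort and 1 of 20 in each of the others, and 0 passed by limma. Itgb7, the beta chain that pairs with Itga4 or Itgae, had 14, 189 and 13 reads with D18 against 12, 7 and 21 with anti-PD-1 in the CD8+ T cell sort (1.51 ± 0.66). Its groups did not overlap there in normalised reads, as was so with D18 higher for 6.88% of the genes tested. They overlapped in the CD4+ T cell sort (2.69 ± 1.22), where anti-PD-1 replicate 3 had the most reads of the 6 libraries. Itgax, a chain of dendritic cells and macrophages, had 52, 3 and 38 reads against 20, 17 and 22 in the dendritic cell sort (0.28 ± 0.63) and a log2 change of 1.68 ± 1.35 in the CD8+ T cell sort, with overlap in both. Itgb5 and Itgav, with at most 27 and 16 reads in a library, were not tested. Among 28 genes that activate integrins or link them to actin, 15, 8 and 8 were tested in the CD8+, CD4+ and dendritic sorts, 0 passed, and 10, 4 and 3 of them were higher with D18, with medians of 0.49, 0.09 and -0.40. Over all genes tested, 758 of 1569, 498 of 966 and 274 of 886 were higher, with medians of -0.03, 0.03 and -0.65. Tln1, which encodes talin, had 28, 140 and 32 reads with D18 against 19, 47 and 29 with anti-PD-1 in the CD8+ T cell sort (0.93 ± 0.36), again without overlap (beside the same 6.88% of genes). Its groups overlapped in the CD4+ T cell sort (-0.12 ± 0.56) and among dendritic cells (0.50 ± 0.70). Coro1a (-0.14 ± 0.40), Pfn1 (-0.65 ± 0.46) and Fyb (-0.03 ± 0.38), actin regulators and an adaptor of the integrin pathway, lay nearer to 0 in the CD8+ T cell sort. Coro1a stood at 0.82 ± 0.49 among CD4+ T cells and -1.09 ± 1.12 among dendritic cells. Of 7 inhibitors of integrins 2 were tested in the CD8+ T cell sort, Sipa1 (1.14 ± 0.68) and Dok2 (0.75 ± 0.68), and none in the other sorts.

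No ligand passed by limma. Of 14 ligands of the integrins, Cd44 and Cd2, 5, 5 and 6 were tested in the CD8+, CD4+ and dendritic sorts and all of those had negative changes (medians -0.43, -1.43 and -1.45, beside -0.03, 0.03 and -0.65 over all genes). Spp1, which encodes osteopontin, had 55, 0 and 69 reads with D18 against 277, 195 and 373 with anti-PD-1 in the dendritic cell sort (-4.44 ± 1.30, adjusted p = 0.551 by limma). Its groups overlapped in the CD8+ (-1.47 ± 1.95) and CD4+ (-3.28 ± 2.09) T cell sorts. Cd48, the mouse ligand of Cd2, had log2 changes of -0.23 ± 0.41, -1.43 ± 0.70 and -1.61 ± 1.14. Of 8 ligands of the chemokine receptors, 5 were tested in each sort, of which 1, 2 and 1 were higher and 4, 3 and 4 lower with D18. Over all genes tested, 811 of 1569, 468 of 966 and 612 of 886 were lower. Ccl7 (1.56 ± 0.84) and Ccl2 (0.54 ± 0.55), ligands of Ccr2, were the higher ones in the CD4+ T cell sort. Cxcl16, the ligand of Cxcr6, had 0, 33 and 30 reads with D18 against 8, 32 and 74 in the CD8+ T cell sort, 4, 5 and 43 against 61, 103 and 18 in the CD4+ T cell sort, and 54, 5 and 69 against 57, 55 and 74 in the dendritic cell sort (-1.55 ± 1.38, -1.74 ± 0.87 and -0.78 ± 0.63). These are genes of macrophages and dendritic cells too, whose macrophage markers had negative changes as given above, and their part was not tested.

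Among 21 other homing receptors and regulators, 6, 6 and 4 were tested in the CD8+, CD4+ and dendritic sorts, 0 passed, and 3, 3 and 0 were higher with D18. This count and those of the lists below stand beside 758 of 1569, 498 of 966 and 274 of 886 higher over all genes tested. Cx3cr1, the fractalkine receptor of macrophages and some effector T cells, had 0, 1 and 9 reads with D18 against 8, 86 and 59 with anti-PD-1 in the CD8+ T cell sort, 4, 5 and 12 against 51, 31 and 31 in the CD4+ T cell sort, and 20, 0 and 21 against 52, 25 and 74 in the dendritic cell sort. Its changes were -3.53 ± 1.19, -1.90 ± 0.50 and -2.91 ± 0.99. The groups of Cx3cr1 overlapped in the CD8+ T cell sort only. Groups without overlap and with D18 lower were found for 9.21% of the genes tested in the CD4+ T cell sort and 19.9% in the dendritic cell sort. Cd69, which holds T cells in tissue, had 23, 9 and 23 reads against 7, 1 and 9 in the CD4+ T cell sort (2.21 ± 0.86). Its groups did not overlap there, as was so with D18 higher for 5.28% of the genes tested. Anti-PD-1 replicates 1 and 2 of that sort held 0 and 1 reads of Cd3e. In the CD8+ T cell sort Cd69 had a log2 change of 0.24 ± 0.39, with overlap. Selplg, the P-selectin ligand, had log2 changes of -0.34 ± 0.50, 0.45 ± 0.59 and -1.25 ± 0.84. Ccr1, a receptor of monocytes, stood at -2.27 ± 1.08 in the dendritic cell sort and -0.67 ± 1.90 in the CD8+ T cell sort, and had 0, 1 and 12 reads with D18 against 69, 29 and 9 with anti-PD-1 in the CD4+ T cell sort. The groups of Ccr1 overlapped in both T cell sorts but not in the dendritic cell sort, beside the same 19.9% of genes. Of 18 genes of chemokine receptor signalling, 12, 6 and 6 were tested and 5, 2 and 2 were higher. Rgs1, which dampens that signal, had 42, 103 and 56 reads with D18 against 88, 228 and 210 in the CD8+ T cell sort (-1.16 ± 0.50) and 54, 6 and 92 against 154, 258 and 250 in the dendritic cell sort (-2.35 ± 0.66), without overlap in either. With D18 lower, that was so for 7.65% and 19.9% of the genes tested in these sorts. The groups of Rgs1 overlapped in the CD4+ T cell sort (-0.49 ± 0.49). Gnai2, the G protein subunit that chemokine receptors couple to, had positive log2 changes in the 3 sorts (0.40 ± 0.39, 0.90 ± 0.62 and 0.45 ± 0.59), and Rac2, a GTPase of cell movement, in the T cell sorts (0.49 ± 0.48 and 1.29 ± 0.63, against -0.94 ± 0.99 among dendritic cells). Of the 9 partners of Cd44 and Cd2, 5, 4 and 2 were tested, of which 1, 3 and 0 were higher. Msn, which links Cd44 to actin, had a log2 change of 0.66 ± 0.39 in the CD8+ T cell sort, 0.86 ± 0.69 in the CD4+ T cell sort and -0.02 ± 0.58 in the dendritic cell sort. Its groups did not overlap in the CD8+ T cell sort, as was so with D18 higher for 6.88% of the genes tested, and overlapped in the others.

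In mm10, with GENCODE's gene bounds, Itgal (ENSMUSG00000030830.18) lies on chromosome 7 at 127296260 to 127335138, Itgb2 (ENSMUSG00000000290.13) on chromosome 10 at 77530252 to 77565708, Itga4 (ENSMUSG00000027009.18) on chromosome 2 at 79255426 to 79333123 and Itgb1 (ENSMUSG00000025809.15) on chromosome 8 at 128685654 to 128733200. Cd44 (ENSMUSG00000005087.17) lies on chromosome 2 at 102811141 to 102901665 and Cd2 (ENSMUSG00000027863.8) on chromosome 3 at 101275899 to 101287939. Cxcr6 (ENSMUSG00000048521.7) and Ccr2 (ENSMUSG00000049103.13) share chromosome 9, at 123806475 to 123811760 and 124101950 to 124113557, and Cxcr3 (ENSMUSG00000050232.6) lies on the X chromosome at 101731535 to 101734269. The libraries keep no strand, and the exons of 1 member overlap another gene: 8.0% of those of Itga4 lie opposite Cerkl, which had at most 1 read in a library.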

How the data were processed

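Per the labels' protocols, total RNA of the sorted cells was amplified by Smart-Seq2, a full-length method without strand. Per the submitters' processing notes, the tools were STAR 2.4.0, HTSeq 0.6.1 and DESeq2 (no version stated), with the mm10 build. The authors deposited 1 table of log2 values per sort. Their spacing is that of a variance-stabilising transform applied to size-factor-scaled reads, a step read from the values and not from any note. Undoing the transform gave whole reads for 100% of values within 0.001, and the implied size factors matched median-ratio ones (largest relative difference 1.9e-14). Column names give treatment and number, and the sort comes from the table. Symbols were found for 98.9% of gene IDs.

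Changes were tested per sort with limma 3.58.1 (R 4.3.3, trend and robust) on log2(normalised reads + 1), keeping genes that average 10 or more, with Benjamini-Hochberg adjustment over all of them, against 0.05. The tests of the difference between sorts used 1 fit of all 18 libraries. The script was tested on simulated data. Other steps used Python 3.11.15, scipy 1.17.1 and pandas 2.3.3. CPM were taken over nuclear reads, since tables were normalised apart, and no test was made of levels across tables.

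The members, the gene lists and the alternatives were chosen with earlier results of these data known. Genes named beside the members are, per list, up to 4 with the highest mean normalised reads and any that passed, and per member the 2 most like it, Serp1 excepted, which was named after its value was seen. Same-numbered libraries deviated together in the CD8+ T cell sort (correlations of deviations from group means 0.36, 0.51 and 0.56), so the numbers pair the samples there by the data, not by any label. For CD4+ T cells they were -0.14, 0.15 and -0.20, for dendritic cells 0.03, -0.09 and 0.14.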

Additional observations from a re-analysis of the deposited data

How the results depend on the processing

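limma called 0 genes in each sort. In the CD8+ T cell sort the count was 1 on the deposited log2 values, 22 without the filter, 20 with the replicate block, and 0 to 3 with a library left out. In the CD4+ T cell sort it was 29 without the filter, 35 without both libraries numbered 3, and 0 to 20 with a library left out. In the dendritic cell sort it was 1 without both libraries numbered 3, and the replicate block called 0 there and in the CD4+ T cell sort. Quantile normalisation, limma-voom, a minimum of 50, pseudocounts of 0.1 and 10, the batch term and the T cell covariate left the count at 0 in every sort. The differences between sorts had 0 calls under every alternative run. Of the members' changes under alternatives, 112 values in the CD8+ T cell sort, 107 in the CD4+ and 48 in the dendritic cell sort kept their call and their direction, apart from members whose reported change was within its error of 0. The exceptions are Cd2 in the CD4+ T cell sort, which turned to -0.30 with the batch term and without the libraries with at most 1 read of Cd3e, and the values that passed, 1 in the CD8+ and 7 in the CD4+ T cell sort, all given above. For Cd2 both settings set the D18 libraries against anti-PD-1 replicate 3 alone, so they are the same comparison. The cause of the turn was not tested. Leaving out libraries with at most 1 Cd3e read removed none in the CD8+ T cell sort. Mean CPM over all reads in place of nuclear reads moved by more than 1 SD for Itga4 in CD8+ T cells with anti-PD-1 (63.9), Cd44 (76.5) and Ccr2 (107) in CD4+ T cells with anti-PD-1. The depth limits members under 10 normalised reads, most of all in dendritic D18 replicate 2.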
